A study of Mus musculus with 6 samples.

Results

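The synaptotagmins are a family of membrane proteins, and 10 of them, Syt1, Syt2, Syt4, Syt5, Syt6, Syt7, Syt9, Syt10, Syt11 and Syt15, were followed here in the hippocampus of mice with a reduced dose of Phf21b, a gene for a histone-binding nuclear protein. These 10 genes were chosen by symbol, with earlier results of these data known, and each had 1 row among the 14477 genes in the deposited expression matrix. RNA was sequenced from the hippocampus of 3 untreated Phf21bΔ4/Δ4 mice (replicates 2, 3 and 6) and 3 untreated Phf21b+/+ littermates (replicates 5, 7 and 8), with 1 library per mouse and no pooling stated. The Phf21bΔ4/Δ4 mice carried a CRISPR/Cas9 deletion within exon 4 of Phf21b in every cell of the body, on a C57BL/6J background shared with the Phf21b+/+ mice, and the methods describe the colony's experimental animals as young adults of both sexes. The labels do not give the sex of the sequenced mice, and their RNA had the pattern of females, as given below. Libraries were made from total RNA after removal of ribosomal RNA. The question was which of the synaptotagmin genes differed in level between the genotypes, and how the members differed from one another.

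A synaptotagmin spans a vesicle or plasma membrane once and exposes a tandem pair of C2 domains to the cytoplasm. In the members that bind calcium, these domains engage membrane lipids and the SNARE complex when calcium enters the cell, which links the calcium signal to vesicle fusion. Other members have C2 domains that do not bind calcium, and the family as a whole also serves dense-core vesicle secretion, membrane repair and endocytosis.

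The 10 members did not move together. Syt6, Syt9 and Syt15 fell in the Phf21bΔ4/Δ4 mice to 19.4%, 10.9% and 12.3% of the Phf21b+/+ mean, while the abundant members Syt1 and Syt11 had higher mean levels in the Phf21bΔ4/Δ4 mice that did not pass the test. A gene counted as changed when limma gave a false discovery rate (FDR, the Benjamini-Hochberg adjusted p over all genes) under 0.1 and a fold change above 1.3. By that rule 3 of the 10 members were lower and 0 were higher, where 0.663% of all 14477 genes were lower and 0.553% higher. The study itself listed Syt6, Syt9 and Syt15 as lower in these same libraries, and the members were chosen with earlier results known. The count beside these shares is therefore a description and no test of enrichment. The count of 0 higher members was also 0 by voom on whole reads, and 4 members had a positive difference with an unadjusted limma p under 0.05, as did many other genes (3421 genes passed that unadjusted limit in either direction). Separation of the mice was more common than a call, since all 3 Phf21bΔ4/Δ4 mice were below all 3 Phf21b+/+ mice for 3 members, where 16.0% of all genes were, and above them for 4 members, where 15.0% of all genes were. With 3 mice against 3, an exact two-sided permutation test cannot give a p below 0.1, so the tests here come from the limma fit across all genes.

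The promoters of the 3 changed members are shown because these genes moved in the same direction in the same mice. Each line gives the 250 bases before the first start listed for the gene in RefSeq (GRCm38.p6), on the strand of the gene, with capitals marking a GC box, the letters GGGCGG on either strand.
Syt6, chr3:103574995-103575244 (+): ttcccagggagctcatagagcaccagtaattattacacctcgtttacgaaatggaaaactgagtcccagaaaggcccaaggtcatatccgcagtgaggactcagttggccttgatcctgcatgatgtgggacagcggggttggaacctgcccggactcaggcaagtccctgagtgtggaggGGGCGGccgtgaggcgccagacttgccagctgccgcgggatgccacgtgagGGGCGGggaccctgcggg
Syt9, chr7:107370540-107370789 (+): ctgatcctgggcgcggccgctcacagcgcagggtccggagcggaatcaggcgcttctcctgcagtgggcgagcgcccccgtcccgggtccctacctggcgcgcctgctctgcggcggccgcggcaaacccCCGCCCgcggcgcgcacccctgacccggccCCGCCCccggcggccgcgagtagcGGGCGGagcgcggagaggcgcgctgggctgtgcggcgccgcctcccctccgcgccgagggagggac
Syt15, chr14:34219796-34220045 (+): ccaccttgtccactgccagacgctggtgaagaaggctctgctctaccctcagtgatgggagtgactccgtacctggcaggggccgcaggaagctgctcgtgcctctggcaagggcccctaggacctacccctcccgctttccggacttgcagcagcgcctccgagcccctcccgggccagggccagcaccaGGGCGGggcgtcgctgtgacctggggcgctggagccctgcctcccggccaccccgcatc
The Syt6 window held 2 GC boxes and 1 E-box (CACGTG), the Syt9 window 3 GC boxes, and the Syt15 window 1 GC box. A GC box was present in 32.9% of 27025 RefSeq promoter windows of this length and an E-box in 6.05%. Their base composition differed, with 60.4% G and C for Syt6, 80.4% for Syt9 and 70.0% for Syt15, beside a median of 52.0% over all windows. Windows were found for 7 of the 10 members, and Syt1, Syt2, Syt10 and Syt11, none of which passed the test, also held between 1 and 3 GC boxes each, so this sequence did not separate the changed members from the others. The cyclic AMP response element TGACGTCA, present in 1.62% of windows, was found in 0 of the 7, and its shorter form TGACG, present in 17.9% of windows and contained in the longer one, occurred once each in Syt2 and Syt10. The RE1 element, present in 0.0666% of windows, was found in 0 of the 7. Syt4, Syt5 and Syt7 were not searched. The windows were not all upstream of the gene by GENCODE positions. Those of Syt11 and Syt15 lie inside the GENCODE span, and those of Syt1, Syt6 and Syt9 reach into it.

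Facts that bear on all members come from the libraries. Each library held between 20495605 and 24881257 reads on listed genes, so that 3 reads corresponded to 0.127 to 0.143 CPM, the library-scaled read count used for all levels. Phf21b, the targeted gene, was at 2.15, 3.57 and 3.87 CPM in Phf21bΔ4/Δ4 replicates 2, 3 and 6 and at 6.50, 5.23 and 6.47 CPM in Phf21b+/+ replicates 5, 7 and 8, a log2 difference of -0.96 that did not pass the test by limma (FDR = 0.141). All 3 Phf21bΔ4/Δ4 mice were below all 3 Phf21b+/+ mice, the direction given by the labels. Markers of tissue next to the hippocampus differed among the mice. The summed level of 12 choroid plexus genes was 28.9 to 90.6 CPM in the Phf21bΔ4/Δ4 mice and 36.2, 16200 and 1023 CPM in Phf21b+/+ replicates 5, 7 and 8, so that Phf21b+/+ replicate 7 stood apart. Xist was present at 86.9 to 216 CPM in all 6 mice. Of 5 sex-linked genes looked for, only Xist was in the matrix, and the Y-linked Ddx3y, Eif2s3y, Kdm5d and Uty were absent. That is the pattern of female mice.

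Syt6, a calcium-binding member best known from the acrosome of sperm, lies on chr3:103575231-103645569 (+) in GRCm38. Its level was 8.31, 7.29 and 3.92 CPM in Phf21bΔ4/Δ4 replicates 2, 3 and 6 and 33.8, 28.5 and 38.4 CPM in Phf21b+/+ replicates 5, 7 and 8. The genotypes did not overlap, and the highest Phf21bΔ4/Δ4 mouse was far under the lowest Phf21b+/+ mouse. Syt6 fell by 2.43 on the log2 scale (SE 0.288, 95% confidence interval -3.12 to -1.74), which is 5.39-fold lower (limma, FDR = 0.0465). Behind these levels stood 90 to 197 reads per Phf21bΔ4/Δ4 mouse and 676 to 855 reads per Phf21b+/+ mouse. Over 505 exonic bases Syt6 is overlapped by Atg4a-ps on the opposite strand, and because the sources used here do not state whether counting used strand, reads of the pair cannot be told apart there. Without any 1 Phf21b+/+ mouse the call was lost, with limma FDRs of 0.113, 0.193 and 0.191 without replicates 5, 7 and 8, and it was kept without each Phf21bΔ4/Δ4 mouse. Calls over all genes moved with these fits, from 176 in either direction with all 6 mice to between 9 and 27 without 1 Phf21b+/+ mouse, 28 and 45 without Phf21bΔ4/Δ4 replicates 2 and 3, and 2830 without Phf21bΔ4/Δ4 replicate 6. The difference itself stayed between -2.64 and -2.10 over these 6 fits.

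Syt9, a calcium-binding member linked to regulated secretion, lies on chr7:107370728-107548656 (+) and gave the widest difference of the 10. The names Syt5 and Syt9 have been exchanged in parts of the literature, and here both follow the symbols of the matrix. Its level was 9.91, 10.2 and 2.35 CPM in Phf21bΔ4/Δ4 replicates 2, 3 and 6 and 60.9, 66.3 and 78.3 CPM in Phf21b+/+ replicates 5, 7 and 8. Every Phf21bΔ4/Δ4 mouse was under every Phf21b+/+ mouse, and Phf21bΔ4/Δ4 replicate 6 was much lower than the other two. Syt9 fell by 3.46 on the log2 scale (SE 0.549, 95% confidence interval -4.77 to -2.15), which is 11.0-fold lower (limma, FDR = 0.0724). The reads behind it were 235, 213 and 54 in the Phf21bΔ4/Δ4 mice and 1283 to 1741 in the Phf21b+/+ mice. The call rested on all of the mice but one, since the limma FDR was 0.199 and 0.111 without Phf21bΔ4/Δ4 replicates 2 and 3, and 0.118, 0.242 and 0.279 without Phf21b+/+ replicates 5, 7 and 8. Without Phf21bΔ4/Δ4 replicate 6, the lowest mouse, Syt9 was still lower by a log2 difference of -2.76 with a limma FDR of 0.00141.

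Syt15, a divergent member whose C2 domains are not thought to bind calcium, lies on chr14:34219595-34230420 (+), and its RefSeq start lies inside this GENCODE span. It was the least abundant of the 10, at 1.05, 0.715 and 0.392 CPM in Phf21bΔ4/Δ4 replicates 2, 3 and 6 and 4.46, 6.12 and 6.97 CPM in Phf21b+/+ replicates 5, 7 and 8. The genotypes again did not overlap, and replicate 6 was again the lowest of the Phf21bΔ4/Δ4 mice. Syt15 fell by 3.10 on the log2 scale (SE 0.4, 95% confidence interval -4.05 to -2.15), which is 8.58-fold lower (limma, FDR = 0.0576). These levels rested on 25, 15 and 9 reads in the Phf21bΔ4/Δ4 mice and on 94, 145 and 155 reads in the Phf21b+/+ mice, the thinnest counts among the members. On the log2(CPM + 1) scale, which compresses low levels, the difference was -1.99 with a limma FDR of 0.0256. The call was lost without Phf21bΔ4/Δ4 replicate 3 (limma FDR = 0.111) and without Phf21b+/+ replicates 5, 7 and 8 (limma FDR = 0.113, 0.242 and 0.225), while the log2 difference stayed between -3.43 and -2.72.

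**Figure D1:**
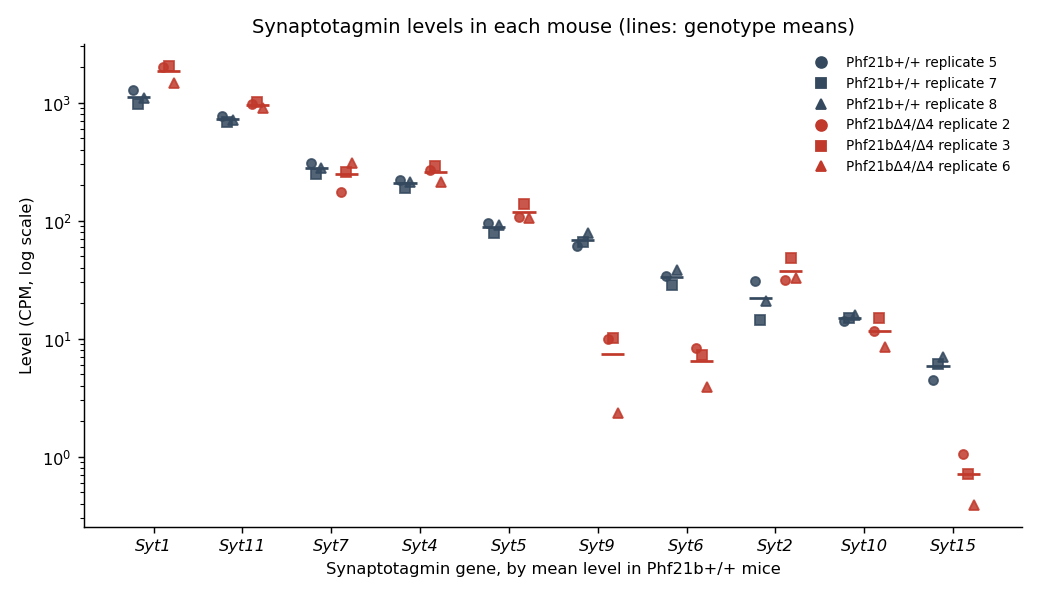
Level of each of the 10 synaptotagmins in each mouse, in CPM on a log axis, ordered by the mean in Phf21b+/+ mice (3 mice per genotype, short lines are genotype means). Syt9, Syt6 and Syt15 are the members with all red Phf21bΔ4/Δ4 points well under all dark Phf21b+/+ points.

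In the same mice, markers of the medial habenula, a small epithalamic nucleus close to the hippocampus, were lower as well. All 12 markers were below the Phf21b+/+ range in every Phf21bΔ4/Δ4 mouse, where 16.0% of all genes were, and 11 were called lower, where 0.663% of all genes were. Most of them are on the study's own list of lower genes from these libraries, and the marker list was written with earlier results known. These counts are therefore a description and no independent test. Their summed level was 14.8 to 21.7 CPM in the Phf21bΔ4/Δ4 mice and 180.5 to 241 CPM in the Phf21b+/+ mice. The Phf21bΔ4/Δ4 mean of this sum was 9.14% of the Phf21b+/+ mean. The defining genes Pou4f1, Chat and Slc18a3 had at most 3 reads in each Phf21bΔ4/Δ4 mouse. The part of medial habenula tissue in the lower Syt6, Syt9 and Syt15 was not tested. In bulk tissue, fewer cells of a type and less RNA per cell cannot be told apart. The mouse with the lowest summed habenula level, Phf21bΔ4/Δ4 replicate 6, was also the lowest for Syt6, Syt9 and Syt15, and the mouse with the highest, Phf21b+/+ replicate 8, was the highest for all 3 genes. Between these extremes the order was not shared by all 3 genes. Phf21b+/+ replicate 5 was under replicate 7 for the habenula sum, Syt9 and Syt15 but above it for Syt6. Phf21bΔ4/Δ4 replicate 3 was under replicate 2 for the habenula sum, Syt6 and Syt15 but above it for Syt9. The genotypes did not overlap for the sum or for any of the 3 genes. The lowest mouse was therefore bound to be Phf21bΔ4/Δ4 and the highest Phf21b+/+. These orders were not tested.

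Other marker lists gave fewer calls. Of 11 thalamic markers tested, 2 were called lower, where 0.663% of all genes were. In every Phf21bΔ4/Δ4 mouse 5 of them were below the Phf21b+/+ range, where 16.0% of all genes were. The thalamic sum was 137 to 245 CPM in the Phf21bΔ4/Δ4 mice and 276 to 610 CPM in the Phf21b+/+ mice. Of 8 dentate granule cell markers, 1 was called lower, and 7 were below the Phf21b+/+ range in every Phf21bΔ4/Δ4 mouse. The dentate sum was 314 to 624 CPM against 749 to 858 CPM. The 12 choroid plexus markers gave 1 call, lower, and 2 of them were below the Phf21b+/+ range in every Phf21bΔ4/Δ4 mouse. The choroid plexus sum of Phf21b+/+ replicate 5 lay within the range of the Phf21bΔ4/Δ4 mice. Thalamic and dentate sums were also lower in the Phf21bΔ4/Δ4 mice, to 44.6% and 54.3% of the Phf21b+/+ mean. The part of thalamic, dentate and choroid plexus tissue in the values of Syt6, Syt9 and Syt15 was not tested.

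**Figure D2:**
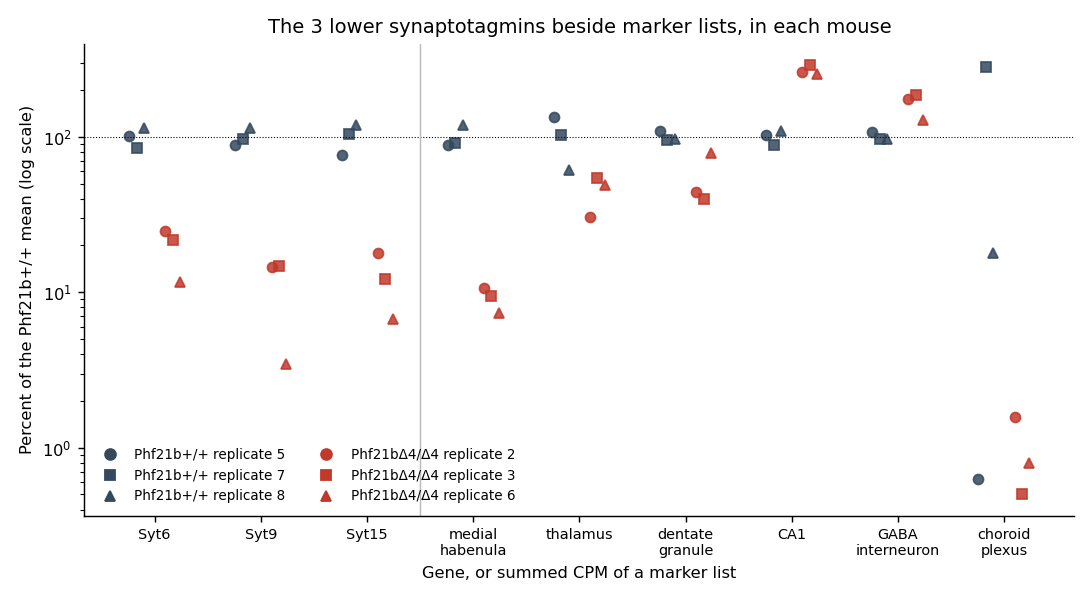
Syt6, Syt9 and Syt15 and the summed CPM of 6 marker lists in each mouse, as percent of the Phf21b+/+ mean on a log axis (dotted line at 100, 1 point per mouse). The Phf21bΔ4/Δ4 points of the 3 genes lie between 3.43% and 24.7%, the medial habenula sums between 7.30% and 10.7%, and the CA1 sums at 254% or above.

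The genes with the most similar pattern over the 6 mice were found by the root mean square difference of log2 CPM, after each gene was centred on its own mean, among the 12951 genes whose log2 CPM averaged 1 or more, leaving out other synaptotagmins. Because the pattern includes the genotype difference, likeness here describes the same contrast and adds no test. Closest to Syt6 were Scn9a, a sodium channel gene (difference 0.30), Adcyap1, which encodes the neuropeptide PACAP (0.33), Tex15 (0.43), Aldh1a2, a retinoic acid synthesis enzyme (0.45), and the calretinin gene Calb2 (0.46). Closest to Syt9 were Tac2, which encodes neurokinin B (0.42), the choline transporter gene Slc5a7 (0.54), the transcription factor gene Tcf7l2 (0.59), the orphan receptor gene Gpr139 (0.63) and the neuroglobin gene Ngb (0.66). Syt15 had 4 of those 5 as its nearest genes, Tac2 at 0.31, Slc5a7 at 0.48, Tcf7l2 at 0.48 and Ngb at 0.52, with Nhlh2, a neuronal transcription factor gene, at 0.47. Tac2, Slc5a7 and Nhlh2 stand on the medial habenula marker list and Tcf7l2 on the thalamic list, whereas none of the 5 nearest to Syt6 stands on the habenula list. That list holds only 12 genes, and the search left out genes of low mean level. Absence from the list therefore says nothing of where the Syt6 RNA came from, which was not tested.

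Syt1, the calcium sensor of fast synchronous transmitter release in forebrain neurons, lies on chr10:108497650-109010982 (-). Its level was 2003, 2051 and 1470 CPM in Phf21bΔ4/Δ4 replicates 2, 3 and 6 and 1270, 982 and 1100 CPM in Phf21b+/+ replicates 5, 7 and 8. The genotypes did not overlap, with Phf21bΔ4/Δ4 replicate 6 nearest to the Phf21b+/+ mice. The log2 difference was 0.71 (SE 0.175, 95% confidence interval 0.296 to 1.13), which did not pass the test (limma, FDR = 0.133). Without Phf21bΔ4/Δ4 replicate 6 it was 0.87 with a limma FDR of 0.0263, in a fit that called 1485 of all genes higher, and in the other 5 fits without 1 mouse it was 0.62 to 0.81 with limma FDRs of 0.139 to 0.356.

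Syt2, which takes the role of Syt1 in hindbrain synapses and in parvalbumin interneurons, lies on chr1:134646677-134762593 (+). Its level was 31.7, 48.3 and 32.5 CPM in Phf21bΔ4/Δ4 replicates 2, 3 and 6 and 30.8, 14.5 and 20.9 CPM in Phf21b+/+ replicates 5, 7 and 8. The groups were separate by a narrow margin, since Phf21b+/+ replicate 5 came close to Phf21bΔ4/Δ4 replicates 2 and 6. The log2 difference was 0.80 (95% confidence interval 0.103 to 1.51) and did not pass the test (limma, FDR = 0.179). All 10 markers of GABA interneurons, a list written with earlier results known, had positive differences. Of these, 1 was called higher, where 0.553% of all genes were. Their sum was 920 to 1323 CPM in the Phf21bΔ4/Δ4 mice and 688 to 764 CPM in the Phf21b+/+ mice. The part of these cells in the Syt2 values was not tested.

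Syt5, a calcium-binding vesicle protein on chr7:4539765-4547541 (-), was at 107, 140 and 106 CPM in Phf21bΔ4/Δ4 replicates 2, 3 and 6 and at 96.1, 78.4 and 92.5 CPM in Phf21b+/+ replicates 5, 7 and 8. The genotypes did not overlap, and the highest single level was that of Phf21bΔ4/Δ4 replicate 3, as for Syt2. Its log2 difference was 0.40 (95% confidence interval 0.068 to 0.721) and did not pass the test (limma, FDR = 0.169). Without Phf21bΔ4/Δ4 replicate 6 it was 0.47 with a limma FDR of 0.0897, without Phf21bΔ4/Δ4 replicate 3 it was 0.26 with a limma FDR of 0.319, and the remaining 4 fits without 1 mouse gave limma FDRs of 0.192 to 0.398.

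Syt7, a high-affinity calcium sensor that supports asynchronous release and facilitation, lies on chr19:10389090-10453180 (+). Its level was 175, 259 and 307 CPM in Phf21bΔ4/Δ4 replicates 2, 3 and 6 and 308, 249 and 279 CPM in Phf21b+/+ replicates 5, 7 and 8. The ranges overlapped, and the low mean of the Phf21bΔ4/Δ4 mice came from replicate 2 alone. The log2 difference of -0.21 had a 95% confidence interval from -0.703 to 0.288 (limma, FDR = 0.544), and without Phf21bΔ4/Δ4 replicate 2 it was 0.02. An opposite-strand transcript, Gm26859, shares 384 exonic bases with Syt7.

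Syt10, an activity-regulated member related to Syt6 that serves growth factor secretion in olfactory neurons, lies on chr15:89782393-89841860 (-), the chromosome of Phf21b. Its level was 11.6, 14.9 and 8.48 CPM in Phf21bΔ4/Δ4 replicates 2, 3 and 6 and 14.3, 15.1 and 15.8 CPM in Phf21b+/+ replicates 5, 7 and 8. The Phf21b+/+ mice were close together and Phf21bΔ4/Δ4 replicate 3 lay among them. The log2 difference was -0.41 with a 95% confidence interval from -0.893 to 0.08 (limma, FDR = 0.266). It was -0.20 without Phf21bΔ4/Δ4 replicate 6, the lowest mouse, and -0.60 without Phf21bΔ4/Δ4 replicate 3. A drop of the size seen for Syt6 was outside this interval, as it was for Syt7.

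Syt4 and Syt11 form a pair of related members that lack a calcium-binding residue of the first C2 domain. Syt11, which restrains endocytosis and lies on chr3:88744700-88775164 (-), was at 981, 1013 and 898 CPM in Phf21bΔ4/Δ4 replicates 2, 3 and 6 and at 777, 691 and 721 CPM in Phf21b+/+ replicates 5, 7 and 8. The genotypes did not overlap, and the spread within each was small. Its log2 difference was 0.40 (SE 0.1, 95% confidence interval 0.165 to 0.64) and did not pass the test (limma, FDR = 0.134). Without Phf21bΔ4/Δ4 replicate 6 it was 0.45 with a limma FDR of 0.0437, and the other 5 fits without 1 mouse gave limma FDRs of 0.149 to 0.356. After quantile normalization the difference was 0.13.

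Syt4, an activity-induced member of dense-core vesicles on chr18:31437808-31447406 (-), was at 272, 293 and 213 CPM in Phf21bΔ4/Δ4 replicates 2, 3 and 6 and at 221, 189 and 213 CPM in Phf21b+/+ replicates 5, 7 and 8. Phf21bΔ4/Δ4 replicate 6 lay within the Phf21b+/+ range and the other two lay above it. The log2 difference was 0.31 with a 95% confidence interval from -0.014 to 0.632 (limma, FDR = 0.223), and 0.15 after quantile normalization. Without Phf21bΔ4/Δ4 replicate 6 it was 0.45 with a limma FDR of 0.042, and the other 5 fits without 1 mouse gave limma FDRs of 0.256 to 0.472. The opposite-strand transcript Gm26658 shares 566 exonic bases with Syt4.

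Markers of CA1 pyramidal cells, which carry much of the excitatory output of the hippocampus, lay on the same side as the positive members. All 7 CA1 markers had positive differences, as did 6884 of all 14477 genes, and 3 were called higher, where 0.553% of all genes were. The 3 called, Fibcd1, Mpped1 and Gpr161, are on the study's own list of higher genes from these libraries. The marker lists were written with earlier results known, so these counts are a description and no independent test. The CA1 sum was 865 to 982 CPM in the Phf21bΔ4/Δ4 mice and 300 to 371 CPM in the Phf21b+/+ mice. Of 8 general hippocampal neuron markers, 0 were called by limma and 6 had positive differences, with a sum of 3319 to 3970 CPM against 2544 to 3525 CPM. Of 6 CA3 markers, 0 were called, and their sum was 147 to 296 CPM against 223 to 281 CPM. Of 14 glial markers, 1 was called lower, where 0.663% of all genes were. The glial sum was 6517 to 8740 CPM in the Phf21bΔ4/Δ4 mice and 7480 to 9461 CPM in the Phf21b+/+ mice. The part of these cell types in the values of Syt1, Syt2, Syt5 and Syt11 was not tested.

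**Figure D3:**
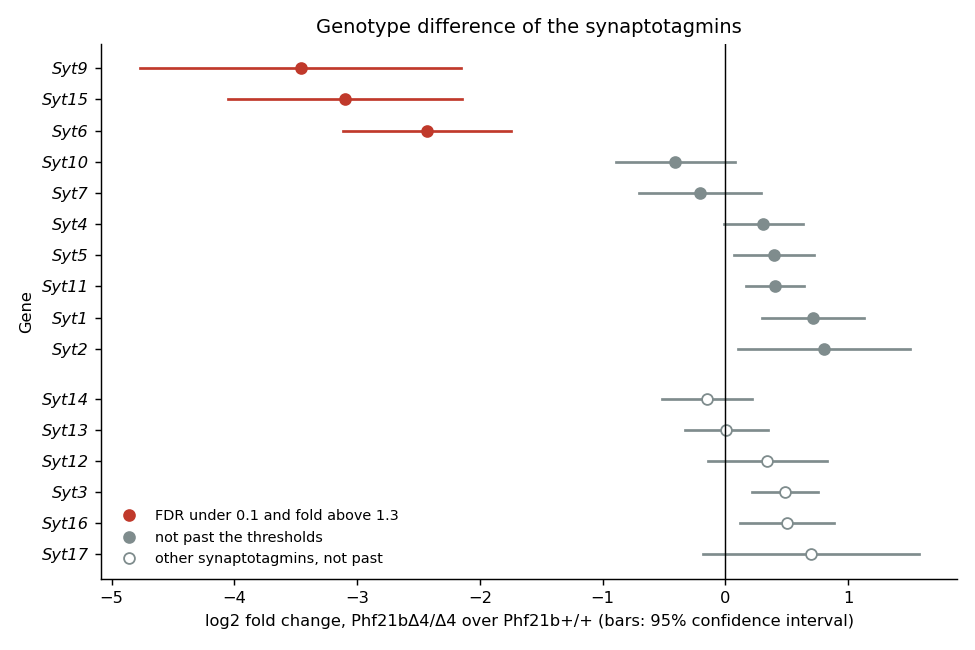
Log2 fold change of each synaptotagmin in Phf21bΔ4/Δ4 over Phf21b+/+ mice, with 95% confidence intervals from limma (3 mice per genotype, filled points for the 10 members and open points for 6 other synaptotagmins). Syt9, Syt15 and Syt6, in red, passed the thresholds and have intervals that end at -1.74 or below, while all others lie between -0.41 and 0.80.

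Among the 10 members the order differed between the genotypes as well as the level, and the 6 other synaptotagmins in the matrix were not ranked. Per kilobase of exon, Syt11 (140 ± 8.39 CPM per kb, SD, n = 3) and Syt1 (134 ± 17.4) led in the Phf21b+/+ mice with overlapping ranges, followed by Syt4 (53.3 ± 4.31), Syt5 (37.4 ± 3.92) and Syt7 (37.2 ± 3.97), of which Syt5 and Syt7 overlapped. Syt9 came next at 17.2 ± 2.23 CPM per kb, above Syt10 (8.16 ± 0.405), Syt6 (5.76 ± 0.85), Syt2 (2.89 ± 1.08) and Syt15 (1.13 ± 0.247), and neighbours in this lower part of the order did not overlap. In the Phf21bΔ4/Δ4 mice Syt1 (221 ± 38.7 CPM per kb, SD, n = 3) and Syt11 (185 ± 11.4) again overlapped, as did Syt4 (66.5 ± 10.7) and Syt5 (49.4 ± 8.17), with Syt7 next at 33.0 ± 8.95. Syt10 (6.31 ± 1.74) and Syt2 (4.91 ± 1.23) then stood above Syt9 (1.88 ± 1.11) and Syt6 (1.12 ± 0.395), with overlap within each of these pairs, and Syt15 (0.139 ± 0.0642) was last in both genotypes. As a share of the summed level per kb of the 10 members, Syt9 went from 3.96% (3.23% to 4.47% over the Phf21b+/+ mice) to 0.318% (0.118% to 0.428% over the Phf21bΔ4/Δ4 mice), Syt6 from 1.32% to 0.193% and Syt1 from 30.6% to 38.6%. The summed level of all 10 members was 3601, 3837 and 3041 CPM in Phf21bΔ4/Δ4 replicates 2, 3 and 6 and 2816, 2319 and 2566 CPM in Phf21b+/+ replicates 5, 7 and 8, and most of it came from Syt1 and Syt11.

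The rest of the family and the proteins synaptotagmins work with gave no calls. Of 7 other synaptotagmins, 6 were among the genes tested, 0 were called by limma, and their median log2 difference was 0.41, beside 0.05 for the 10 members and -0.02 for all genes. Syt3, which forms a subgroup with Syt6 and Syt10, was at 77.7, 68.4 and 65.7 CPM in Phf21bΔ4/Δ4 replicates 2, 3 and 6 and at 57.1, 45.2 and 49.1 CPM in Phf21b+/+ replicates 5, 7 and 8, opposite in sign to Syt6 with a log2 difference of 0.49 (95% confidence interval 0.217 to 0.756) that did not pass the test (limma, FDR = 0.133). The genotypes did not overlap for Syt3 and Syt16, both higher, where 15.0% of all genes were higher without overlap. They overlapped for Syt12, Syt13, Syt14 and Syt17.

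Of 20 genes for the fusion machinery, which includes the SNARE proteins Snap25 and Vamp2 and the complexins, 0 were called by limma, 18 had positive differences and the median was 0.32. All Phf21bΔ4/Δ4 mice were above all Phf21b+/+ mice for 7 of the 20 and below them for 0, beside 15.0% and 16.0% of all genes. Of 14 vesicle proteins, 0 were called, 10 had positive differences and the median was 0.46. All Phf21bΔ4/Δ4 mice were above all Phf21b+/+ mice for 7 of the 14 vesicle genes (Sv2b, Syp, Syn2, Syngr1, Syngr3, Rab3a and Snap91) and below them for 2 (Sv2c and Ston2), beside 15.0% and 16.0% of all genes, and these were named after their values were seen. Of 10 relatives with C2 domains, 0 were called and the median was 0.08. The lowest of these, Sytl1, also named after its values were seen, had 0 to 6 reads per Phf21bΔ4/Δ4 mouse, 27 to 44 reads per Phf21b+/+ mouse and a limma FDR of 0.173. The lowest FDRs on the 4 lists were between 0.133 and 0.159.

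**Figure D4:**
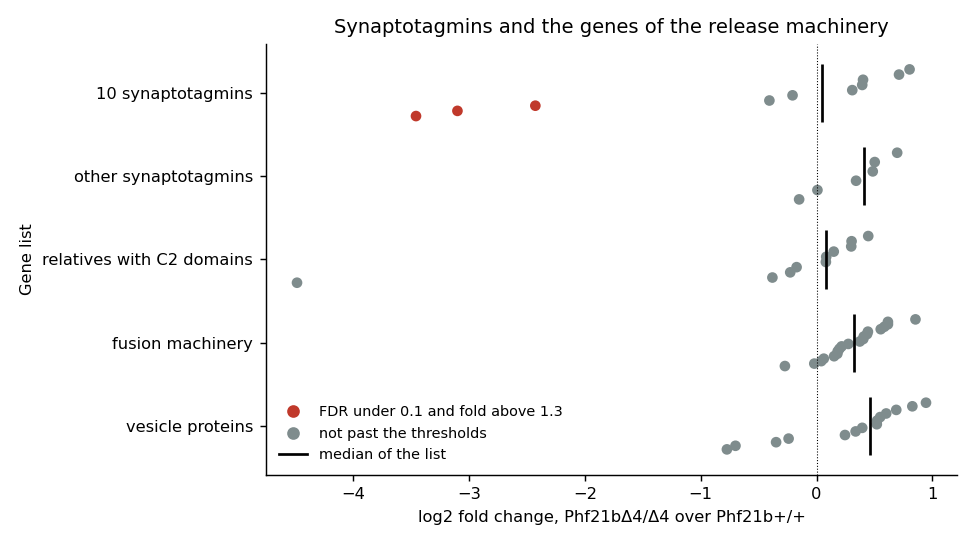
Log2 fold change of each gene on 5 lists, in Phf21bΔ4/Δ4 over Phf21b+/+ mice (1 point per gene, black line at the median of the list, dotted line at 0). The 3 red points are Syt9, Syt15 and Syt6, the only genes past the thresholds on these lists, and the medians lie between 0.05 and 0.46.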

How the data were processed

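Per the submitters' processing notes and the study's methods, the authors trimmed reads with Trimmomatic 0.39, aligned them to GRCm38 with STAR 2.7.3a, counted reads per gene with featureCounts (Subread 1.6.4) and normalised with edgeR. The authors deposited 1 matrix of log2 CPM for 14477 genes and 6 mice. The methods state a filter of at least 1 CPM in at least 2 libraries, and every deposited gene reached 0.971 CPM or more in 2 libraries. Whether counting used strand is not given in the sources used here. CPM is the value with the log2 removed, and 100.0% of values came out as whole reads within 0.1 read, which gave the read numbers. The floor of 3 reads covers counting error only.

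Genotypes were compared with limma 3.58.1 (R 4.3.3, two-sided moderated test with a mean-variance trend) on the deposited log2 values of all genes and 6 mice, with Benjamini-Hochberg adjustment over all 14477 genes, and tested on simulated data. Fold changes are on the deposited log2 scale, whose small prior count (about 0.1 read) matters only for genes near 0. Named were the 10 members, called genes of 4 lists, the 5 genes most similar to each called member, Phf21b and list markers. The other synaptotagmins and a few uncalled list genes were named outside this rule, after their values were seen. The members and lists were chosen with earlier results of these data known. Gene positions and exon lengths came from GENCODE M21 (GRCm38), and promoters from RefSeq. Each mouse is 1 library, so p-values cover the spread between these mice.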

Additional observations from a re-analysis of the deposited data

How the results depend on the processing

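There were 3 mice per genotype. Against 3 members lower and 0 higher, weighting the mice with arrayWeights gave 5 lower (with Syt7 and Syt10) and 3 higher (Syt1, Syt2 and Syt11), with 2066 of all genes lower and 1483 higher where 96 and 80 were with equal weights, and an FDR limit of 0.05 gave 1 lower. Leaving out 1 mouse gave 0 to 3 lower, with 0 without Phf21b+/+ replicates 5, 7 or 8 and 1 without Phf21bΔ4/Δ4 replicate 3, and 0 to 4 higher, with 4 (Syt1, Syt4, Syt5 and Syt11) without Phf21bΔ4/Δ4 replicate 6, where 1485 of all genes were called higher. With no mean-variance trend Syt9 was no longer called (limma FDR = 0.129). The cause was not tested. Syt6, Syt9 and Syt15 were lower in each fit that held them. Syt15 is left out by a minimum mean log2 CPM of 1. Leaving out 1 mouse moved Syt7 from -0.38 to 0.022 on the log2 scale, the only change of sign. Of 149 refits of single members, 126 kept direction and side of the threshold, 9 passed it newly and 13 no longer passed it. No paired analysis was possible because the genotypes share no replicate numbers.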
